A study of Bos grunniens with 3 samples.

Results

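The KRT75 high cells were skin cells with at least 200 detected genes in which KRT75 stood at 2000 CPM or more. CPM are UMIs of a gene per 1000000 UMIs of a cell or a set of cells, and a UMI (unique molecular identifier) counts 1 captured RNA molecule. The inner root sheath keratins KRT71, KRT25, KRT27 and KRT28 together had to stay below 1% of the UMIs, and so did the hair cortex keratins KRT85 and KRT35. By this rule 565 of 38551 kept cells were KRT75 high. They were 150 of 11987 cells in the anagen library, 270 of 12062 in the catagen library and 145 of 14502 in the telogen library. The cells came from scapular skin of Tianzhu white yak (Bos grunniens) of about 2 years of age, and the labels name no treatment. Strips of skin in the growing (anagen), regressing (catagen) and resting (telogen) stage were treated with dispase, hair follicles were drawn out of them, and trypsin then freed the cells of the follicles, so shares of cells refer to these pulled follicles and not to whole skin. Each stage gave 1 10x Genomics library. The published study names 3 yaks for its anagen and catagen skin. It reports no telogen sample, so it does not give the animals of the telogen library. Which animal gave which library is not stated in the labels. The catagen sample carries a preparation text that speaks of anagen, while its title and stage label say catagen, which was followed here. With 1 library per stage no test between stages was possible, and stage, animal and library cannot be told apart. The KRT75 high cells were chosen by values of the same cells, so their differences from the remaining cells are given for each library as a description, with no test.

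The companion layer is a single sheet of flat cells between the outer and the inner root sheath of the hair follicle. Its cells are bound to the inner root sheath, move up with it as the hair grows, and slide along the outer root sheath. KRT75 (formerly K6hf) is the type II keratin known for this layer, and it also occurs in the hair medulla. KLK10 is a secreted serine protease of the kallikrein family, WNT11 a ligand of the noncanonical WNT pathway, and GABRP the pi subunit of the GABA-A receptor. These 4 genes gave the cells their label, and the files list them as ENSBGRG00000000961 (KRT75), ENSBGRG00000015854 (KLK10), ENSBGRG00000017533 (WNT11) and ENSBGRG00000017839 (GABRP).

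The shares of KRT75 high cells were 1.25% (95% exact binomial interval 1.06 to 1.47) in anagen, 2.24% (1.98 to 2.52) in catagen and 1.0% (0.844 to 1.18) in telogen. These intervals, like all others here, cover counting error only. The share was highest in catagen, and the intervals of anagen and telogen overlapped. The KRT75 high cells had a median of 3972.5 UMIs in anagen, 4635 in catagen and 6590 in telogen. The remaining cells had 5279, 3340.5 and 5574. The whole libraries held 82862998, 51647865 and 103511775 UMIs, of which 1.48%, 2.95% and 1.21% of those in kept cells lay in KRT75 high cells. No kept cell below 2404 UMIs was in the anagen matrix, while the other matrices reached down to 500. The libraries shared 43 barcodes between anagen and catagen, 40 between anagen and telogen and 49 between catagen and telogen, and 0 of these were KRT75 high in both.

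KRT75 in single KRT75 high cells ran from 2063 over a median of 6645 to 30289 CPM in anagen, from 2000 over 6611 to 24073 in catagen, and from 2022 over 4732 to 35594 in telogen. The plot of single cells shows a continuous range above the limit in every library, with the lowest median in telogen. These values chose the cells and are a description. Just inside the limit, 33 anagen, 37 catagen and 41 telogen cells lay between 2000 and 3000 CPM. Just outside it, 40, 127 and 199 cells lay between 1000 and 2000. In shallow cells few molecules decide: 0 anagen, 10 catagen and 14 telogen KRT75 high cells rested on fewer than 3 UMIs of KRT75. The KRT75 high cells held 83.2% of all KRT75 UMIs of the anagen cells, 89.2% in catagen and 63.9% in telogen. Endothelial marker cells (at least 3 UMIs of PECAM1, CDH5, VWF and EMCN together) should lack KRT75. It stood in them at 11.2, 13.7 and 37.9 CPM, against 31.8, 35.4 and 61.5 in all remaining cells. The level outside KRT75 high cells was thus highest in telogen in both sets. The marker cells were not free of keratin RNA, so they are no clean reference. The keratin KRT17 stood in them at 6245 CPM in anagen, 302 in catagen and 4177 in telogen. In all remaining cells it stood at 4765, 3253 and 6161. Unthinned, 72.3%, 26.1% and 86.1% of the marker cells had a UMI of KRT17. The part of free RNA or of doublets in these levels was not tested. The limits on the other keratins removed 0 cells, since no kept cell with KRT75 at 2000 or more reached 1% of either group. The highest share of inner root sheath keratins in any KRT75 high cell was 0.979% in anagen, 0.595% in catagen and 0.298% in telogen.

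**Figure D1:**
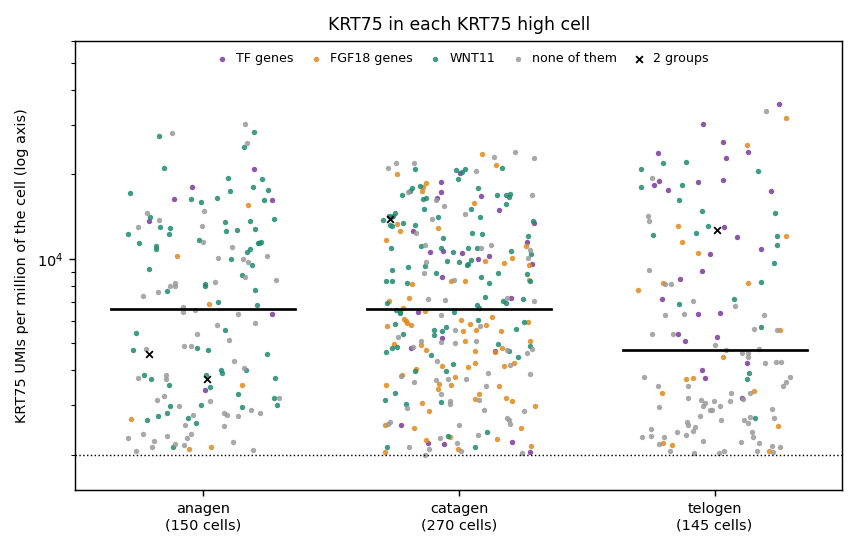
KRT75 in CPM (log axis) in each KRT75 high cell of the anagen (150 cells), catagen (270) and telogen (145) libraries. Black bars are medians (6645, 6611 and 4732), the dotted line is the limit of 2000, and colours mark the 3 gene groups described further on, with crosses for cells in 2 of them.

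Levels of sets of cells are CPM of their summed UMIs. Ratios are log2 ratios of KRT75 high over remaining cells of the same library after adding 10 CPM to each, which shrinks the ratios of low genes. KRT75 itself stood at 10504 CPM against 31.8 in the remaining cells of anagen, 9635 against 35.4 in catagen and 8908 against 61.5 in telogen. KLK10 was at 1010 CPM (954 to 1067, exact Poisson) against 124 in anagen, 1101 (1049 to 1156) against 100.3 in catagen and 1109 (1052 to 1169) against 164 in telogen. WNT11 was at 540 CPM (500 to 583) against 13.3 in anagen, 630 (590 to 671) against 11.1 in catagen and 230 (204 to 258) against 7.54 in telogen. The WNT11 level of the telogen KRT75 high cells was thus under those of anagen and catagen beyond counting error. The difference varied with the level of KRT75. In cells at 2000 to 5000 CPM of KRT75, WNT11 was at 357 CPM in anagen, 304 in catagen and 58.7 in telogen. At 5000 to 10000 CPM it was at 510, 680 and 90.7. In cells at 10000 to 20000 CPM it was at 669, 912 and 605, so telogen was then close to anagen. Above 20000 CPM, in only 8, 16 and 13 cells, it was at 655, 460 and 381. Telogen was there again under anagen, and WNT11 was no higher than in the step before in any library. GABRP was at 26.1 CPM (17.9 to 36.8) against 0.895 in anagen, 92.1 (77.5 to 109) against 10.3 in catagen and 75.3 (60.9 to 92.1) against 4.99 in telogen.

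Of the 4 label genes, KRT75 was higher by the rule that chose the cells, and KLK10, WNT11 and GABRP were also higher in KRT75 high cells of every library. The numbers of cells with at least 1 UMI that follow were counted without thinning and depend on depth, so a cell without a UMI is not shown to lack the gene. GABRP was detected in 7 of 150 anagen, 24 of 270 catagen and 16 of 145 telogen cells, and the 5 cells richest in it held 93.8%, 49.3% and 61.7% of its UMIs. KLK10 and WNT11 were detected in 80 and 91 anagen cells, of which 44 had both. In catagen 104 and 107 cells had them, and 51 had both, while in telogen the numbers were 79, 26 and 15. Nearly all cells with GABRP also had KLK10: 7 of 7 in anagen, 23 of 24 in catagen and 16 of 16 in telogen. WNT11 and GABRP met in 3, 3 and 1 cells. No UMI of the 3 genes was counted in 23 anagen, 110 catagen and 55 telogen KRT75 high cells.

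With every cell thinned to 1500 UMIs, WNT11 was detected in 42.7% of KRT75 high cells in anagen, 32.1% in catagen and 14.3% in telogen, against 1.55%, 1.26% and 0.934% of the remaining cells. Unthinned the shares were 60.7%, 39.6% and 17.9%. Thinning left out 0 anagen, 49 catagen and 26 telogen KRT75 high cells as too shallow. In the endothelial marker cells WNT11 was found in 2 of 65 anagen, 2 of 18 catagen and 1 of 34 telogen cells after thinning. These cells had median depths of 4006, 2425 and 4455 UMIs. KLK10 was detected in 32.7%, 33.0% and 40.3% of thinned KRT75 high cells and in 8.76%, 4.23% and 7.99% of the remaining cells. Unthinned, 53.3%, 38.5% and 54.5% of KRT75 high cells had it. It was found in 7.69% of the thinned endothelial marker cells in anagen, in 0 of 18 in catagen, which allows a share of up to 16.7%, and in 2.94% in telogen. The level of KLK10 in these endothelial marker cells, over all their UMIs, was 666 CPM in anagen, above the 124 of all remaining cells, and 117 in telogen, with 0 UMIs in catagen. GABRP was detected in 2.67%, 7.24% and 5.88% of thinned KRT75 high cells, in 0.118%, 0.522% and 0.332% of the remaining cells and in 0 of 65, 18 and 34 endothelial marker cells, which allows shares of up to 4.62%, 16.7% and 8.82%.

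Other genes known for the companion layer were fewer on the gene list. KRT17, a type I keratin of follicle sheaths, was at 19972 CPM in anagen, 16850 in catagen and 23705 in telogen, against 4765, 3253 and 6161 in the remaining cells. FGF18, a growth factor of the telogen bulge and of the sheath, was at 26.9, 182 and 26.4 CPM against 8.10, 14.8 and 2.5. KRT16 had 0 UMIs in KRT75 high cells of all 3 libraries and 0.0245, 0.0800 and 0.117 CPM in the remaining cells. KRT6A, KRT6B, KRT6C and SERPINB2 have no row under these symbols.

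A gene was counted as higher or lower where it had at least 10 CPM in either set of cells and differed at least 2-fold. In anagen 199 of 5855 genes were higher (3.4%) and 292 lower (4.99%). In catagen 303 of 6256 were higher (4.84%) and 269 lower (4.3%), and in telogen 171 of 5503 were higher (3.11%) and 223 lower (4.05%). Of 5093 genes measured in every library, 95 (1.87%) were higher in all 3 and 112 (2.2%) lower in all 3. The median log2 ratio of all measured genes was -0.05, 0.05 and -0.07.

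Of the genes other than the 4 label genes and the 6 keratins of the rule, the 25 with the highest ratios across the 3 libraries held several proteins of the actin cytoskeleton. TAGLN, an actin-bundling protein best known from smooth muscle, was at 2002 CPM in anagen, 2150 in catagen and 2541 in telogen, against 147, 279 and 200.4 in the remaining cells. The LIM-domain proteins PDLIM4 and PDLIM7, smoothelin (SMTN) and the nonmuscle myosin heavy chain MYH14 were each higher in all 3 libraries, with log2 ratios between 1.53 and 2.23. In the list of contractile and actin-binding genes, 6 of 20 measured were higher in all 3 libraries and 0 lower, beside 1.87% and 2.2% of all genes. The 6 were TAGLN, MYH14, PDLIM7, ACTB, TPM1 and ACTN1. Tropomyosin TPM1 had ratios of 1.25, 1.27 and 1.96, and the actin crosslinker ACTN1 had 1.37, 1.90 and 1.94. ACTN1 rested on few cells: without the cells rich in TF, KLK12 and GABRP that are described further on, its ratios were 0.48, 0.84 and 0.77. Those of TAGLN were 3.68, 2.90 and 3.60, and 3.26, 2.42 and 1.74 without these cells. The list's median log2 ratios were 0.75, 0.95 and 0.85.

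TAGLN is also a marker of pericytes and smooth muscle, and that whole list was read beside it. Its summed level in KRT75 high cells was 2011 CPM in anagen, 2165 in catagen and 2547 in telogen, nearly all of it TAGLN. ACTA2, the smooth muscle actin, was at 2.45, 2.63 and 1.60 CPM, and RGS5 and MYH11 had 0 UMIs in every library. The defining markers of these cells were thus at or near 0 while TAGLN was high. In the thinned cells TAGLN was found in 58.0%, 51.1% and 38.7% of KRT75 high cells (unthinned 73.3%, 61.1% and 48.3%). It was found in 41.5%, 33.3% and 50% of endothelial marker cells, so its detection was not limited to KRT75 high cells. The endothelial marker cells also held KRT17, and the part of RNA from other cells in their TAGLN was not tested.

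A second set among the 25 were enzymes, carriers and secreted proteins. KLK12, another kallikrein, had 225, 206 and 529 CPM against 21.1, 18.8 and 35.2 in the remaining cells. TF, the iron carrier transferrin, had 263, 323 and 423 CPM against 8.33, 36.3 and 13.1. The 5 cells richest in TF held 94.1% of its UMIs in anagen, 59.9% in catagen and 51.7% in telogen, so its level came from few cells. SULT2B1, which sulfates cholesterol in the skin barrier, had 436, 258 and 492 CPM against 64.2, 36.5 and 50.1. TIMP1, an inhibitor of matrix metalloproteases, had 1334, 1281 and 1717 CPM against 253, 155 and 326. Of the list of protease inhibitors 10 were measured in all 3 libraries, and TIMP1 and SPINK5, an inhibitor of skin kallikreins, were higher in each and 0 were lower in each, beside 1.87% and 2.2% of all genes. SPINK5 had ratios of 1.43, 1.53 and 1.94, which became 0.51, 1.02 and 0.85 without the cells rich in TF, KLK12 and GABRP. In anagen 2 of 13 inhibitors were higher and 5 lower (median log2 ratio -0.73), beside 3.4% and 4.99% of all genes. In catagen 6 of 11 were higher and 1 lower (1.05), beside 4.84% and 4.3%, and in telogen 3 of 13 were higher and 0 lower (0.46), beside 3.11% and 4.05%. Of 4 kallikreins measured in all 3 libraries, KLK10 and KLK12 were higher and 0 lower in each, beside 1.87% and 2.2% of all genes. Without the cells rich in TF, KLK12 and GABRP the ratios of KLK12 were 0.30, 0.03 and -0.40. Those of KLK10 were then 1.87, 2.39 and 0.85, so KLK12 lost its call in every library and KLK10 in telogen. In telogen 1 of 6 kallikreins was lower, beside 4.05% of all genes, and the median ratios of the list were 0.20, 1.76 and -0.13.

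Among the structural genes, KRT7, a simple-epithelium keratin, was at 223, 386 and 504 CPM against 38.6, 45.4 and 51.4. CRYAB, a small heat shock protein, was at 1930, 2762 and 3714 CPM against 242, 411 and 590. S100A2, a calcium-binding protein of keratinocytes, was at 14272, 8314 and 20444 CPM against 2605, 1422 and 4366. KRT80, a keratin of differentiating epithelium, was at 57.1, 156 and 92.9 CPM against 23.4, 69.8 and 33.3. KRT5, the basal keratin, had ratios of 0.11, -0.14 and -0.10, and KRT14, its partner, had -0.35, -0.46 and 0.41. The keratins together made up 4.23%, 3.90% and 6.26% of the UMIs of KRT75 high cells and 2.82%, 3.01% and 4.09% of those of the remaining cells. These sums include KRT75, which chose the cells, at 10504, 9635 and 8908 CPM in KRT75 high cells. In catagen KRT75 alone exceeded the difference between the sums, so the other keratins together were not higher there.

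The other genes among the 25 were FKBP1B, which binds calcium release channels, the calcium channel subunit CACNA1F, the interferon-induced ISG15, the cytoskeletal regulators DPYSL3 and FARP1, the ERK phosphatase DUSP6, the ubiquitin ligase PDZRN3, the matrix protein FBLN7, the proton pump subunit ATP6V1B1, the lipid carrier STARD5, GMPPA and the gap junction protein GJA1. Their log2 ratios lay between 1.52 and 3.30. Among these ISG15 differed most in level between libraries, with 1012 CPM in anagen, 272 in catagen and 200.3 in telogen, against 94.3, 39.5 and 30.5 in the remaining cells. The least counted of the 25 was DPYSL3 in telogen, with 66 UMIs and 52.9 CPM (40.9 to 67.3) against 2.1.

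**Figure D2:**
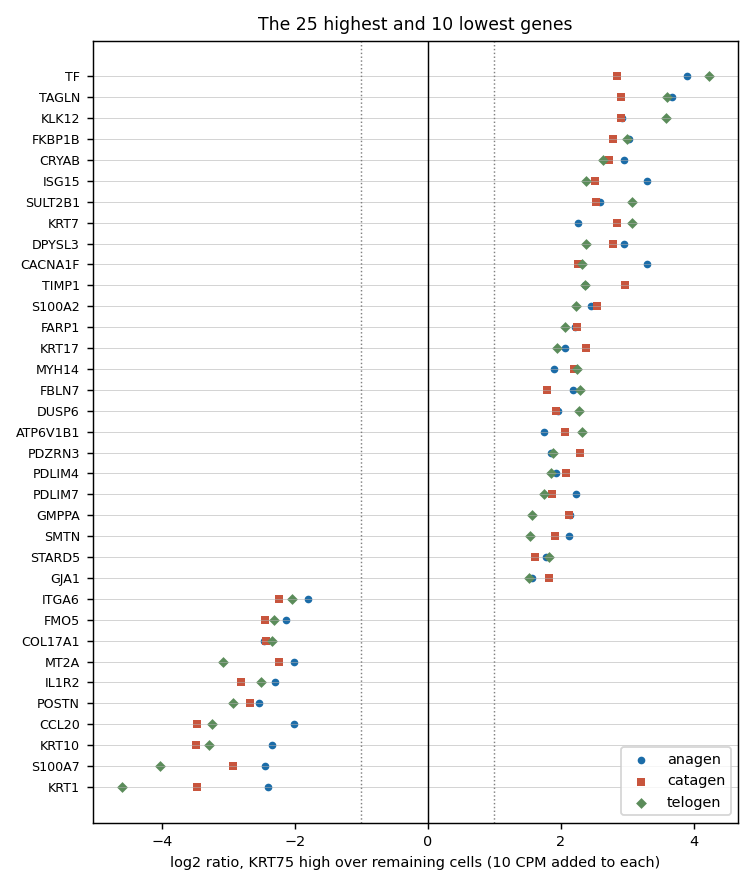
Log2 ratio of KRT75 high over remaining cells (10 CPM added to each) for the 25 genes highest and the 10 genes lowest across the anagen, catagen and telogen libraries, 1 point per library, with the 4 label genes and the 6 keratins of the rule left out. Dotted lines mark 2-fold, and the genes run from KRT1 (-2.41, -3.47 and -4.60) at the bottom to TF (3.89, 2.85 and 4.23) at the top.

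With the keratins of the rule again left out, the 10 genes with the lowest ratios held a pair of epidermal keratins and a pair of hemidesmosome genes. The epidermal keratin KRT1 was at 868 CPM in anagen, 400.1 in catagen and 248 in telogen, against 4650, 4539 and 6257 in the remaining cells. Its partner KRT10 was at 731, 442 and 483 CPM against 3771, 5053 and 4836. KRT1 and KRT10 together made up 1% or more of the UMIs of 13 anagen, 6 catagen and 3 telogen KRT75 high cells, which held 47.0%, 53.8% and 25% of the KRT1 and KRT10 UMIs of all KRT75 high cells. The hemidesmosome genes COL17A1 and ITGA6, which anchor basal cells to the basement membrane, had ratios of -2.47, -2.44 and -2.34 and of -1.81, -2.24 and -2.05. POSTN, a matricellular protein, was at 127, 124 and 115 CPM against 785, 844 and 940. The alarmin S100A7, the chemokine CCL20, the decoy receptor IL1R2, the metallothionein MT2A and the monooxygenase FMO5 were the other 5.

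In the list of integrins, laminins and collagens, 4 of 15 genes measured were lower in all 3 libraries (ITGA6, LAMA3, COL17A1 and POSTN) and 0 higher, beside 2.2% and 1.87% of all genes. Its median ratios were -0.70, -0.81 and -0.93. Beside the same shares, of 14 basal and outer root sheath genes COL17A1, DST and ITGA6 were lower. SOX9, a transcription factor of the outer root sheath and of follicle stem cells, was higher, at 1324, 1511 and 1269 CPM against 608, 499 and 380. Of 9 suprabasal genes KRT1, KRT10 and KRTDAP were lower and KRT80 higher.

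The S100 list went both ways: of 10 genes measured in all 3 libraries S100A2 and S100A16 were higher and 6 were lower, the alarmins S100A7, S100A8, S100A9 and S100A12 with S100A4 and S100A13, beside 1.87% and 2.2% of all genes. S100A16 had ratios of 1.43, 1.47 and 1.35. Of 8 epithelial cytokines and chemokines 0 were higher and 5 lower (IL18, IL1R2, CCL20, CCL27 and CD74), beside the same shares. Members of these lists that were named only because they passed in every library were chosen after their values were seen.

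The lists of signalling and retinoid genes are read beside the shares of all genes in all 3 libraries, 1.87% higher and 2.2% lower. Of 16 WNT pathway genes measured in all 3 libraries WNT11 and PRICKLE1, a component of planar polarity signalling, were higher and the ligand WNT6 lower. PRICKLE1 was at 93.0, 108 and 36.9 CPM against 20, 21.4 and 11. Of 16 BMP and TGF-beta genes 0 were higher or lower in all 3. Of 8 Notch genes the ligand JAG2 and the modifier LFNG were lower, JAG2 with ratios of -1.90, -1.98 and -1.62. Of 10 FGF and ERBB genes FGF18 was higher and 0 were lower. Of 6 retinoid and fatty acid binding genes CRABP2, which carries retinoic acid to the nucleus, and ALDH1A3, which makes it, were higher, while PMP2 and FABP7, fatty acid carriers, were lower. The PMP2 call was lost when the inner root sheath and cortex keratin cells were left out of the remaining cells. Its ratios were -1.66, -2.40 and -2.22 with them and 0.42, 0.50 and -0.30 without them, so the direction turned in anagen and catagen. In anagen PMP2 was at 13676 CPM in the inner root sheath keratin cells. It was at 40.1 in the cortex keratin cells, under the 157 of KRT75 high cells. CRABP2 was at 66.1, 97.4 and 243 CPM against 20.2, 29.9 and 52.5.

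Of 10 adherens, tight and gap junction genes GJA1 and GJB2, the connexins 43 and 26, were higher and 0 lower in all 3 libraries, beside 1.87% and 2.2% of all genes. GJA1 was at 314, 403 and 240.3 CPM against 99, 107 and 77.5, and GJB2 at 104, 94.1 and 40.9 against 11.5, 6.8 and 8.98. Of 9 desmosome genes 0 passed in all 3. Of 15 immediate early and stress genes ATF3 and MT2A were lower. Of 8 mitosis, 11 DNA replication and 5 apoptosis genes measured in all 3 libraries, 0 passed in either direction in each. In single libraries the mitosis genes were lower in 0 of 11 in anagen, 5 of 8 in catagen and 3 of 9 in telogen, beside 4.99%, 4.3% and 4.05% of all genes, and 0 were higher. Their median ratios were -0.44, -1.14 and -0.66. Of the DNA replication genes 2 of 13, 3 of 11 and 2 of 13 were lower and 0 higher, and of the apoptosis genes 0 were either. Without thinning, cells with at least 3 UMIs of TOP2A, CENPF and UBE2C made up 10.0% of KRT75 high cells in anagen, 1.48% in catagen and 2.76% in telogen, against 13.6%, 5.06% and 6.74% of the remaining cells.

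Markers of other skin cells were low in KRT75 high cells, though not always lower than in the remaining cells. The 9 mesenchymal markers with a row summed to 39.1 CPM in anagen, 54.0 in catagen and 9.61 in telogen, against 105, 67.6 and 36.4 in the remaining cells, with DCN the most abundant in anagen and catagen, THY1 in telogen, and COL3A1, LUM and PDGFRA at 0 in every library. DCN, the proteoglycan decorin, was at 34.2, 48.7 and 1.60 CPM against 49.7, 51.7 and 11.4, so it was close to the remaining cells in catagen. The 7 endothelial markers summed to 5.71, 2.63 and 4.81 CPM against 14.3, 7.40 and 9.16, led by PECAM1 in anagen and KDR in the others, with EMCN and CLDN5 at 0 throughout. The 7 immune markers summed to 23.6, 19.7 and 40.9 CPM against 62.6, 169 and 118, led by AIF1 in anagen and catagen and CD74 in telogen, with PTPRC, LYZ, CD52 and LAPTM5 at 0. The 5 melanocyte markers summed to 7.34, 5.92 and 2.40 CPM against 3.79, 20.9 and 3.58, so they were above the remaining cells in anagen, led by PMEL, with MLANA and SOX10 at 0. The part of such cells in the results was not tested.

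Classes of cells set by other keratins were compared next. IRS keratin cells had the inner root sheath keratins of the rule at 1% or more, and cortex keratin cells had KRT85 and KRT35 there. KRT75 stood at 18.5 CPM in the IRS keratin cells of anagen, 11.6 in catagen and 140 in telogen. The telogen class held 80 cells, of which 12 had a KRT75 UMI and the highest reached 1363 CPM. In cortex keratin cells KRT75 was at 29.3, 11.2 and 14 CPM. In KRT79 cells, which have a keratin of the upper follicle at 2000 CPM or more, it was at 24.0, 6.57 and 33.1, and in cells with KRT1 and KRT10 together at 2% or more at 12.5, 12.8 and 17.0 CPM. KRT75 high cells were kept out of both of these classes, so KRT75 was below 2000 CPM in each of their cells by definition. Of the KRT75 high cells, 0 in anagen, 0 in catagen and 1 in telogen had KRT79 at 2000 CPM or more. KRT17 was close to its level in KRT75 high cells in the KRT79 cells, at 19862 CPM in anagen, 14672 in catagen and 21038 in telogen. KLK10 was at 564, 195 and 278 CPM in KRT79 cells, under KRT75 high cells and above the other classes. TAGLN, KRT7 and WNT11 were highest in KRT75 high cells in all 3 libraries.

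**Figure D3:**
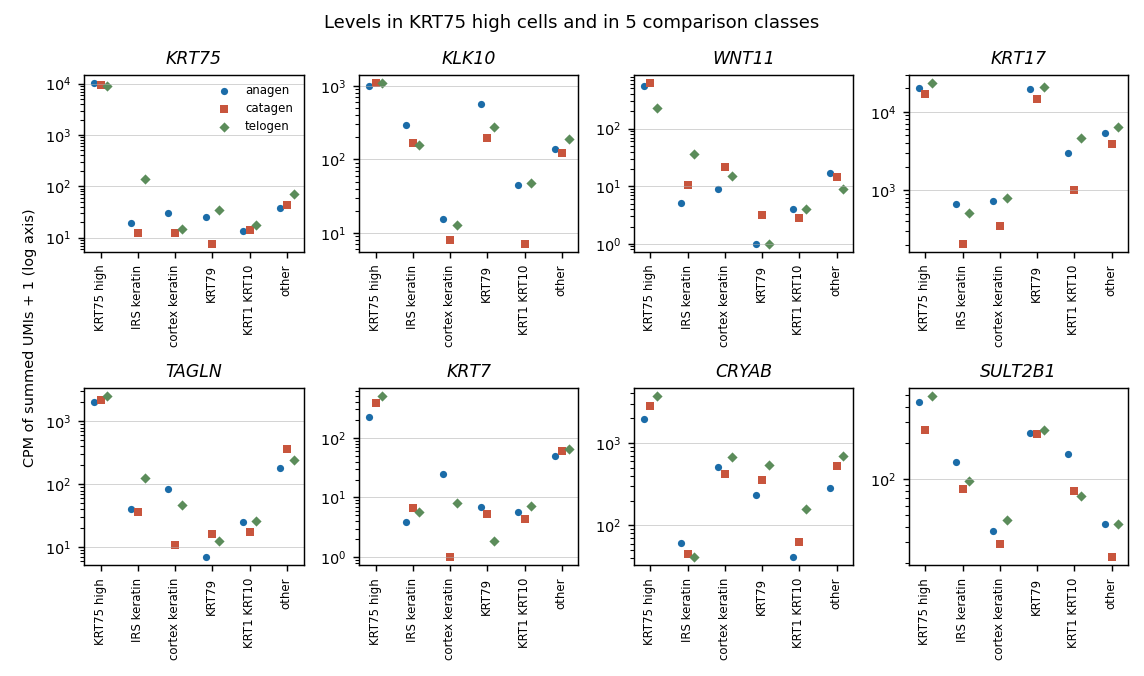
CPM of summed UMIs plus 1 (log axis) of KRT75 and 7 other genes in KRT75 high cells, in 4 classes of cells set by their keratins and in all other cells, 1 point per library. KRT75, which chose the cells, is shown for scale, and KRT17 is close in KRT75 high and KRT79 cells.

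Within the KRT75 high cells other genes went with the level of KRT75. From cells at 2000 to 5000 CPM over 5000 to 10000 to 10000 to 20000, KRT17 went from 6951 over 14765 to 28125 CPM in anagen, from 9298 over 13733 to 22728 in catagen, and from 21340 over 21719 to 24828 in telogen. KRT7 went from 56.2 over 185 to 358 CPM in anagen, 175 over 276 to 573 in catagen and 202 over 553 to 690 in telogen. In the opposite direction KRT1 went from 1911 over 821 to 315 CPM in anagen, from 832 over 350 to 154 in catagen and from 364 over 247 to 107 in telogen. POSTN went from 253 over 94.3 to 77.1, from 261 over 146 to 11.8 and from 196 over 84.4 to 48.8 CPM. The mitotic gene TOP2A went from 270 over 133 to 4.29 CPM in anagen and from 58.5 over 22.4 to 1.97 in catagen. In telogen it was at 27.4, 3.13 and 32.5 CPM and followed no such order.

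The highest step, above 20000 CPM, held only 8 anagen, 16 catagen and 13 telogen cells. There KRT7 was at 281, 781 and 1243 CPM, in anagen below the step before. KRT1 was at 25.5, 32.9 and 109 CPM, in telogen no lower than the step before. The median depth moved with KRT75, from 3382 over 4671 to 4745 UMIs in anagen, from 2814 over 4743 to 6771 in catagen and from 4769 over 7171 to 10178 in telogen, and its part in these levels was not tested. The cells just outside the limit, at 1000 to 2000 CPM, had medians of 3611, 1982 and 1755 UMIs and KRT17 at 5029, 8707 and 16162 CPM, below the first step inside the limit in every library. Their KRT1, at 878, 885 and 2020 CPM, was below that of the first step in anagen and above it in catagen and telogen. TF was at 80.0, 610 and 35.0 CPM in the cells just outside. In catagen this was above its 121 CPM in the first step and its 323 CPM in all KRT75 high cells. KLK12 and GABRP, at 201 and 91.7 CPM in the catagen cells just outside, were close to their 206 and 92.1 CPM in all KRT75 high cells, so high levels of these genes in catagen also occurred below the limit.

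**Figure D4:**
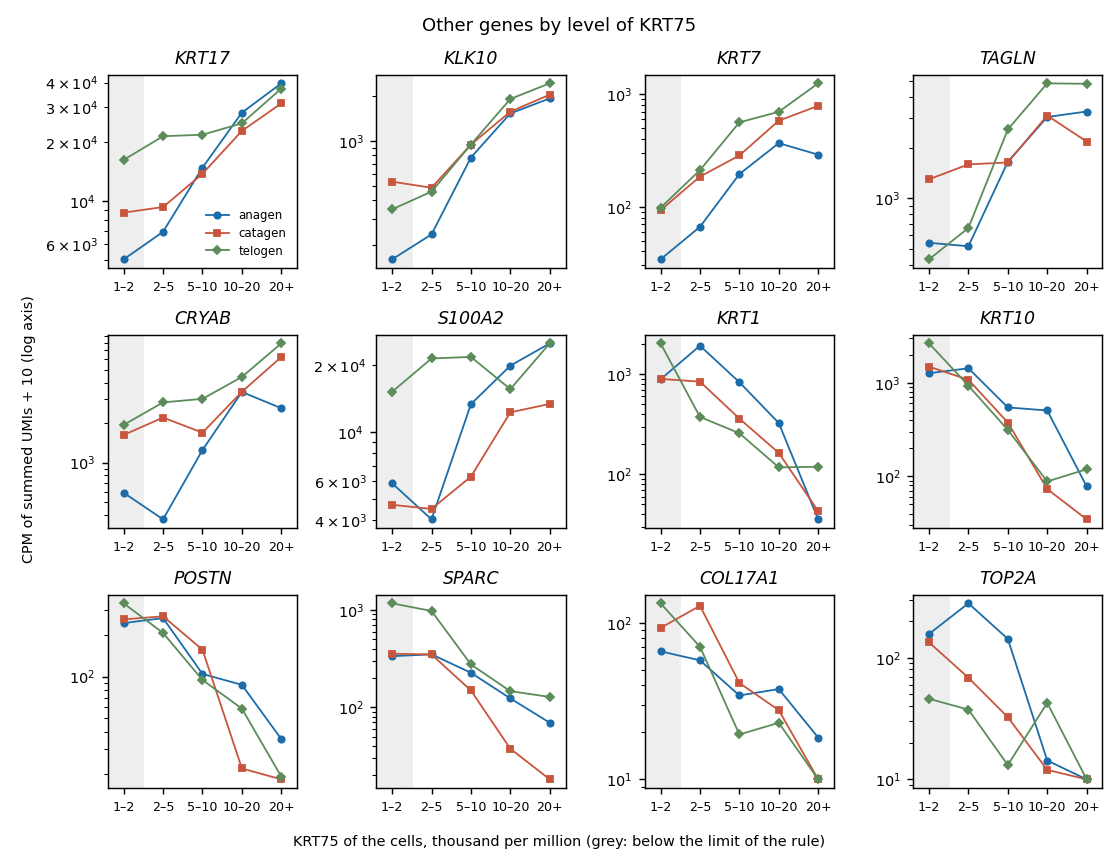
CPM of summed UMIs plus 10 (log axis) of 12 genes in cells grouped by KRT75 in steps of its CPM (the axis gives it divided by 1000), for the anagen, catagen and telogen libraries. The grey step is below the limit of the rule. KRT17 rises over the 4 steps inside it in every library, and POSTN falls over them in every library.

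The KRT75 high cells were not uniform, and 3 gene groups divided many of them. The groups and their limits were chosen after the values were seen and are a description. The first group had TF, KLK12 and GABRP together at 1000 CPM or more, the second had FGF18, the chemokine CXCL14 and the ligand BMP2 together at 1000 or more, and the third had WNT11 at 300 or more. In shallow cells 1 UMI is enough to pass these limits. The TF group held a telogen cell of 534 UMIs, and the WNT11 group an anagen cell of 2539 UMIs. How many cells rested on 1 UMI was not counted. In anagen 7, 9 and 73 of 150 cells passed these limits, in catagen 27, 74 and 101 of 270, and in telogen 28, 20 and 23 of 145. The groups met in few cells: 2 anagen cells and 1 telogen cell had the FGF18 genes and WNT11, 1 catagen cell had the TF genes and WNT11, and 0 cells had the TF and FGF18 genes. With limits of 500 and 150 CPM, 7 of 18 anagen, 2 of 88 catagen and 2 of 29 telogen FGF18 cells also had WNT11. Of the TF cells 4 of 13, 3 of 33 and 1 of 31 then had WNT11, and 0 had the FGF18 genes. The overlap expected from the group sizes was not computed, so these counts are a description. None of the 3 applied to 63, 69 and 75 cells, which were 42.0%, 25.6% and 51.7%. These shares follow the limits chosen: with the limits doubled they were 59.3%, 46.7% and 65.5%.

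The shares differed between the libraries. WNT11 cells made up 48.7% (40.4 to 57.0) of KRT75 high cells in anagen, 37.4% (31.6 to 43.5) in catagen and 15.9% (10.3 to 22.8) in telogen. The FGF18 genes were found in 6.0% (2.78 to 11.1), 27.4% (22.2 to 33.1) and 13.8% (8.63 to 20.5). The TF genes were found in 4.67% (1.90 to 9.38), 10.0% (6.69 to 14.2) and 19.3% (13.2 to 26.7). Of KRT75 high cells with at least 2404 UMIs in catagen, 46.8% were WNT11 cells and 22.0% had the FGF18 genes, so depth moved both shares, and the WNT11 share then came close to that of anagen.

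In the cells with the TF genes alone, KRT7 was at 1084 CPM in anagen, 1727 in catagen and 1501 in telogen, against 116, 175 and 62.4 in the other KRT75 high cells. KLK10 was at 5278, 4228 and 2928 CPM against 483, 609 and 304. SULT2B1, the crosslinker ACTN1, ATP6V1B1, TAGLN, the matrix protease ADAMTS1, the lectin LGALS3 and the secretory protein AGR2 were also higher there in every library. TAGLN was at 6101, 6167 and 6712 CPM in these cells. Their KRT75 had medians over cells of 16278, 10105 and 11389 CPM, and by summed UMIs it stood at 14096, 9839 and 12102 CPM. By summed UMIs it was the highest of the 4 sets in anagen, while the WNT11 cells were higher in catagen, at 10460, and in telogen, at 13331. Their depths were high too, with medians of 22924, 8079 and 10553 UMIs, and the part of depth or of doublets in them was not tested. Of the 25 highest genes named above, 15 had their highest level in these cells in all 3 libraries, among them TF and KLK12, which chose the group. This count has no share of all genes beside it and is not read as a property of the 25. They were chosen on summed UMIs, of which these cells held 383169 of 1248370 in telogen KRT75 high cells.

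Without the cells with the TF genes the log2 ratios over the remaining cells fell below 2-fold in all 3 libraries for TF, KLK12 and GABRP, as their choice implies. The ratio of KLK10 became 1.87 in anagen, 2.39 in catagen and 0.85 in telogen, and that of KRT7 1.38, 1.69 and 0.24. That of ATP6V1B1 became 0.58, 0.94 and 1.04, and that of STARD5 1.29, 0.84 and 0.60, so these also fell below 2-fold in 2 libraries each. Of the list members named above, ACTN1 fell below 2-fold in all 3 libraries, SPINK5 in anagen and telogen, KRT80 and CRABP2 in anagen and catagen, SOX9 and S100A13 in anagen, and ALDH1A3, S100A4 and IL18 in telogen, none with a change of sign. Ratios that stayed past 2-fold in telogen but moved by more than 0.5 were those of TAGLN, CRYAB (2.11), TIMP1 (1.83), SULT2B1 (1.20), FKBP1B (1.99), DPYSL3 (1.77), FBLN7 (1.57) and ATP6V1B1. The ratios of KLK10 and KRT7 of the telogen KRT75 high cells past 2-fold thus rested on 28 cells. The numbers of genes at least 2-fold higher were then 178, 269 and 128.

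In the cells with the FGF18 genes alone CST3, the protease inhibitor cystatin C, was at 4232 CPM in anagen, 10624 in catagen and 7974 in telogen, while in WNT11 cells it was at 198, 140 and 460. KRT15, a keratin of the bulge and basal layer, was at 1236, 3374 and 1980 CPM against 42.4, 38.0 and 24.0 in WNT11 cells. IGFBP7, which binds insulin-like growth factors, was at 5189, 8796 and 7720 CPM, and the myelin protein PMP22, LY6G6C, the ligand GAS6, the TGF-beta co-receptor CD109 and the growth factor PTN were also higher there. The anagen set held only 7 cells and 32374 UMIs, so 1 UMI there stands for 30.9 CPM. The median depths were 4214, 2582 and 3811 UMIs, lower than in the other KRT75 high cells with TF genes or WNT11.

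In the WNT11 cells the creatine kinase CKB was at 751 CPM in anagen, 493 in catagen and 428 in telogen, and the cotransporter SLC12A2 at 565, 1188 and 348. The crystallin lambda gene CRYL1, the ADP/ATP carrier SLC25A5, the zinc transporters SLC39A6 and SLC39A10, PRICKLE1 and RYK, a WNT co-receptor, were also higher than in the other KRT75 high cells of each library. KRT14 was low in them, at 2955, 1637 and 8135 CPM, against 15082, 24342 and 36350 in the cells with none of the 3 groups. SPINK5 was at 282, 699 and 360.0 CPM, against 9865, 12794 and 7733 in the cells with the TF genes and 8186, 9191 and 6851 in those with the FGF18 genes. SOX9 was at 674, 656 and 612 CPM, against 3118, 2956 and 2093 and against 1884, 2145 and 1485. WNT11 cells thus had the lowest KRT14, SPINK5 and SOX9 of the 4 sets in every library. CENPF, a mitotic gene, was at 261, 106 and 92.0 CPM in them, against 29.7, 14.5 and 10.4 in the cells with the TF genes.

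**Figure D5:**
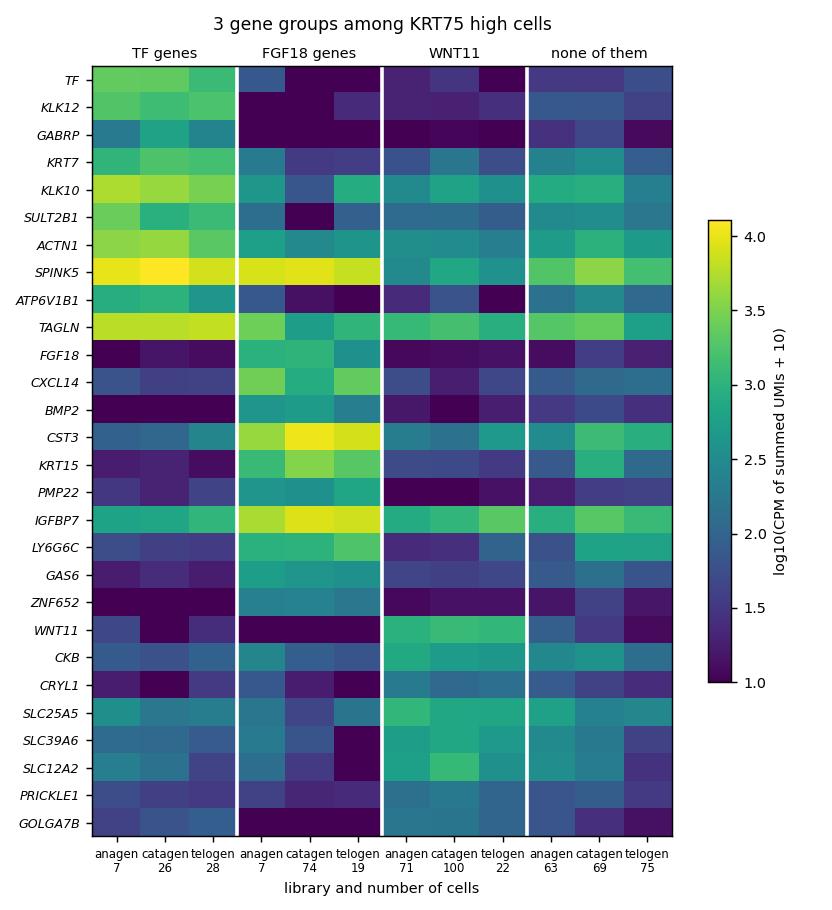
Levels, as log10 of CPM plus 10, of the genes that chose the 3 groups and of the 7 leading other genes of each, in KRT75 high cells with the TF genes only, the FGF18 genes only, WNT11 only or none of them. Columns are the libraries with their numbers of cells. The 3 blocks along the diagonal follow from how the groups and their leading genes were chosen, and the anagen columns of the TF and FGF18 genes hold 7 cells each.

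Between stages the levels in KRT75 high cells were set beside the same change in the remaining cells of each library, since both sets share a library. CST3 stood at 330 CPM in anagen, 2135 in catagen and 1025 in telogen KRT75 high cells, and at 672, 924 and 1011 in the remaining cells. KRT15 stood at 79.1, 761 and 171 CPM, against 297, 676 and 283. LY6G6C stood at 53.0, 307 and 390 CPM against 138, 183 and 229. Of the 4 sets of KRT75 high cells, those with the FGF18 genes had the highest level of each of these genes in every library. The levels also differed between stages in the cells with none of the groups, with CST3 at 310, 1334 and 875 CPM, KRT15 at 63.4, 874 and 107 and LY6G6C at 48.2, 629 and 600.3. INHBA, a subunit of activin, stood at 11.4, 81.6 and 7.21 CPM, but in catagen 14 cells had it and 5 of them held 91.9% of its UMIs. SPINK6, a kallikrein inhibitor, stood at 4.89, 54.0 and 5.61 CPM and was found in 7 catagen cells.

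In the opposite direction CCHCR1, a coiled-coil protein of keratinocytes, stood at 177, 12.5 and 84.9 CPM in anagen, catagen and telogen, against 132, 183 and 140 in the remaining cells. The mitotic genes TOP2A and CENPF were highest in anagen KRT75 high cells, at 111, 24.3 and 20 CPM and at 201, 69.1 and 44.1 CPM. In the remaining cells TOP2A stood at 142, 138 and 102. The vasoconstrictor EDN2 stood at 57.1, 0.658 and 11.2 CPM, and the 5 richest anagen cells held 78.6% of its UMIs.

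The telogen KRT75 high cells stood apart from catagen through lower SLC12A2, at 88.1 CPM against 676 in catagen and 435 in anagen, and lower ADGRV1, an adhesion receptor, at 48.9 against 175 and 97.9. In the remaining cells SLC12A2 stood at 42.9, 116 and 88.3 CPM and ADGRV1 at 2.63, 2.80 and 2.48 in telogen, catagen and anagen. ADGRV1 was thus higher in KRT75 high cells than in the remaining cells of every library. In cells with WNT11 alone ADGRV1 was at 200, 303 and 123 CPM in telogen, catagen and anagen, so telogen was there above anagen. In cells with none of the groups it was at 0, 56.3 and 86.3 CPM. WNT11 cells made up 15.9%, 37.4% and 48.7% of KRT75 high cells, and the part of this in the levels was not tested. TF was at 423 CPM in telogen and 323 in catagen KRT75 high cells, while in the remaining cells it was at 13.1 in telogen and 36.3 in catagen. Within the cells with the TF genes alone the order was the other way, at 1313 CPM in telogen and 2201 in catagen. Cells with the TF genes made up 19.3% of KRT75 high cells in telogen and 10.0% in catagen. CRYL1, highest in WNT11 cells in every library, stood at 122, 59.2 and 39.3 CPM in anagen, catagen and telogen. TIMP3, an inhibitor of metalloproteases, stood at 29.4, 141 and 68.9 CPM, against 34.6, 44.0 and 15.4. None of these differences between stages has a replicate.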

How the data were processed

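The authors deposited raw UMI counts, 1 whole number per gene and cell barcode, as Cell Ranger wrote them, with no normalization. Per the file headers the versions were 4.0.0 (anagen), 3.1.0 (catagen) and 6.0.2 (telogen), while the submitters' processing notes name 2.1.1. The genome build is not given in the sources used here. Barcode and gene lists were read as labels. The matrices list 26924 genes, of which 15765 have a symbol, and 125 of 628 genes in 36 lists had no row. No ambient RNA correction and no doublet caller was applied. Cells with fewer than 200 genes were left out (13, 62 and 71). A telogen cell left out this way had KRT75 at 2000 CPM or more.

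UMIs were summed over cells and given as CPM with exact Poisson intervals, and shares with Clopper-Pearson intervals, at 95%. Cells were thinned by drawing 1500 UMIs without replacement (seed 7). Named genes were the label genes, the keratins of the rule, the 25 highest and 10 lowest of all other genes by the least extreme of the 3 log2 ratios (at least 50 CPM in all 3 libraries), up to 4 of each list and 5 each way per pair of libraries. Members of lists that passed in all 3 libraries, and genes leading the 3 groups, were named after their values were seen. The cells and lists were chosen with earlier results of these data known. Alternatives covered the limits on cells and keratins, the added CPM, weighting of cells and the comparison cells. For list members the comparison cells and the cells with the TF genes were varied after the data were seen. Python 3.11.15, numpy 2.4.6, pandas 2.3.3 and scipy 1.17.1 were used, and the code for ratios was tested on simulated data.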

Additional observations from a re-analysis of the deposited data

Results flagged for a closer look

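For 2 genes the KRT75 high cells stood at least 2-fold above the remaining cells in one library and at least 2-fold below them in another. CST3 had a log2 ratio of 1.20 in catagen and -1.0 in anagen. SPINK6 had 1.47 in catagen and -1.07 in anagen, where 6 UMIs were counted in KRT75 high cells, against 82 in 7 catagen cells. The anagen value of SPINK6 came from the cortex keratin cells among the remaining cells, where it stood at 723 CPM. Without the inner root sheath and cortex keratin cells its ratio was 0.24 in anagen and 2.08 in catagen, so it no longer went both ways. Those of CST3 were then -1.05 in anagen and 1.16 in catagen, and without the cells with the TF genes -0.88 and 1.42. These differences were not tested, since each stage has 1 library.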

How the results depend on the processing

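No paired analysis was possible because no result comes from a test: stages have 1 library each, and the KRT75 high cells were chosen by values of the same cells, so they were not tested against the remaining cells of the 3 libraries. A KRT75 limit of 1000 CPM gave shares of 1.59%, 3.29% and 2.37% in anagen, catagen and telogen, and a limit of 5000 gave 0.709%, 1.43% and 0.483%, so telogen stood above anagen at 1000 and below it at 5000. With at least 1000 genes per cell the catagen share was 2.94%. The limit of 1000 gave 110 higher and 128 lower genes in telogen, and that of 5000 gave 484, 425 and 350 lower genes. With 1 CPM added, 351, 550 and 323 genes were higher and 630, 570 and 529 lower. With 50 CPM added, 69, 104 and 64 were higher and 71, 69 and 56 lower. In anagen, leaving out cells above the 95th percentile of UMIs gave 170 lower genes, and the mean of per-cell CPM gave 152. The other settings kept every share within its interval and every count within 1.5 times. Without catagen the genes higher or lower in both other libraries stayed within 1.5 times of those in all 3.

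For 38 named genes without KRT75 the 114 log2 ratios kept their sign under all 14 planned settings. They stayed past 2-fold except 7 with 50 CPM added, GABRP and CCL20 in anagen by the per-cell mean, and GABRP in anagen without the deepest cells. Without the cells with the TF genes, chosen after seeing the data, 15 of the 114 fell below 2-fold (TF, KLK12, GABRP, KLK10, KRT7, ATP6V1B1 and STARD5), 27 moved by over 0.5 with the same sign, and the sign turned for GABRP in catagen (-0.072) and telogen (-0.43), TF in catagen (-0.82) and KLK12 in telogen (-0.40). Of list members named as passing in all 3 libraries, PMP2 lost its call in each when inner root sheath and cortex keratin cells were left out of the remaining cells, and FGF18 (0.999) and KRT80 (0.96) in anagen, S100A8 (-0.87) in catagen and WNT6 (-0.97) in telogen fell below 2-fold. Stricter limits on the groups (2000 and 600 CPM) gave WNT11 shares of 34.0% in anagen and 31.5% in catagen and FGF18 shares of 14.4% in catagen and 6.90% in telogen, and looser ones (500 and 150 CPM) an FGF18 share of 12% and a TF share of 8.67% in anagen. The share with none of the groups was 59.3%, 46.7% and 65.5% with the stricter limits and 30%, 18.5% and 43.4% with the looser ones. Doublets and ambient RNA were not measured, depth differs between libraries, and groups of 7 cells limit the anagen values.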
